A study of Mus musculus with 16 samples.

Results

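Liver tumours that arose in mice lacking Axin1 in hepatocytes were compared with liver of mice that kept the gene, over every annotated gene on the arrays. The comparison used 11 of the 16 arrays of the study. The tumour group was 8 tumours of 6 Axin1-deleted mice (numbers 121, 90, 124, 123, 93 and 81), and the 3 tumours of mouse 121 entered as their mean, giving each mouse a single value. The control group was the liver of 3 mice without the deletion (numbers 10, 11 and 12). Deleted mice came from a cross of Axin1 fl/fl mice with Alfp-Cre mice, in which Cre is active in hepatocytes of the embryo, so cells outside that lineage, such as blood-derived cells, keep the gene. All mice were male and 16 months old, and tumours appear in deleted mice after 9 months. Non-tumoral liver next to tumours, from 5 deleted mice (121, 124, 123, 1931 and 81), entered the same fit and is given here only beside tumour values.

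Axin1 is a scaffold of the destruction complex, which phosphorylates beta-catenin and so marks it for degradation. Without it beta-catenin can accumulate, enter the nucleus and act with TCF/LEF factors on Wnt target genes, among them genes of the hepatocytes around the central vein such as Glul, glutamine synthetase. Axin1 is also mutated in part of human hepatocellular carcinomas.

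Values are log2 expression values, and a difference is tumour mean minus control mean on that scale. A gene was called at an adjusted p under 0.05 (limma, Benjamini-Hochberg over all 23279 genes). Array medians lay between 4.37 and 4.50. The 1356 olfactory and vomeronasal receptor genes, which liver is not known to use, had a median of 2.59 in control liver with 10th and 90th percentiles of 2.08 and 3.76, and serve as a scale for values near background. The hepatocyte markers Alb, Ttr and Hnf4a lay far above this range in every array. Alb ran from 12.38 to 12.48 in controls and from 11.89 to 12.58 in tumours, and the groups overlapped.

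Axin1 (Entrez gene 12005) was at 5.07, 5.24 and 5.48 in the controls and at 3.95 (lowest), 4.46 (median) and 4.81 (highest) in the 6 tumour mice. Every tumour lay below every control. The difference of -0.83 (SE 0.18) missed the threshold over all genes (adjusted p = 0.102). Which exons the probe set covers is not given in the sources used here, so the value does not measure the deletion itself. Of the 13 measured genes of the destruction complex, 0 were called in limma, and 1 was higher and 2 were lower at an unadjusted p under 0.05, with a median of -0.10 that was 0.03 without tumour 81. Ppp2r1a, a scaffold subunit of protein phosphatase 2A, was at 0.45 (SE 0.14, adjusted p = 0.197).

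Tumours differed in how many genes they carried outside the control range. Counted per array, tumour 90 had 548 genes more than 1 log2 unit above the highest control and 506 more than 1 unit below the lowest. Tumours 123 and 81 had 530 and 514 above and 340 and 406 below. Tumour 93 had 82 above and 18 below, fewer than the adjacent liver of mouse 81, with 89 and 47. The 3 tumours of mouse 121 had 405, 374 and 140 genes above. Across genes these 3 correlated with one another at r between 0.972 and 0.980, and those from different mice at 0.945 to 0.983. Genes within an array are not independent, so these are descriptions.

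**Figure D1:**
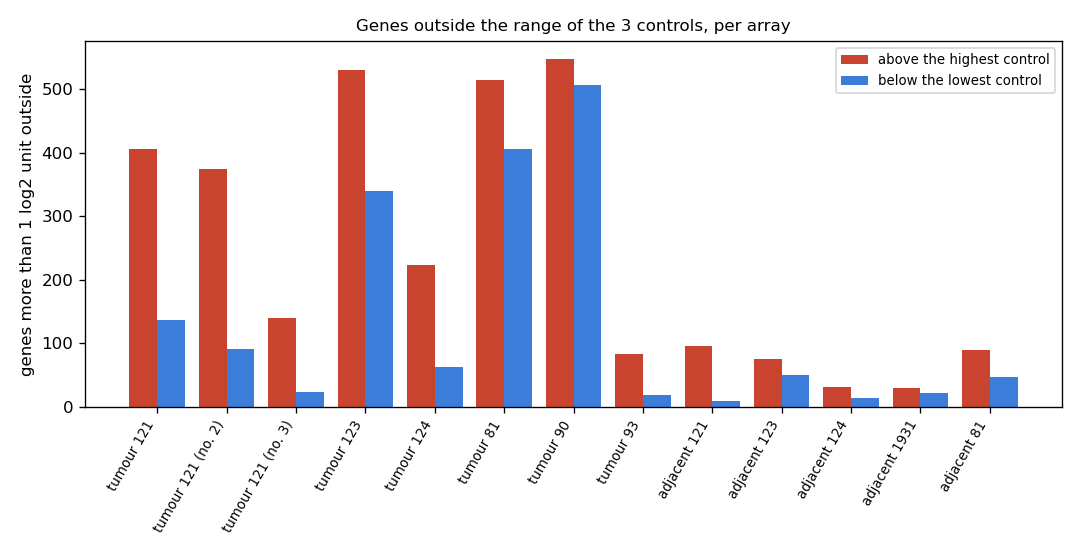
Number of genes (y axis) more than 1 log2 unit above the highest (red) or below the lowest (blue) of the 3 control arrays, for each tumour and adjacent-liver array (x axis, with mouse number). Tumour 90 reached 548 and 506 genes, and tumour 93 only 82 and 18.

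In the comparison of tumours with control liver 6 genes were called, 0.0258% of those tested, or 0.0129% in each direction. The 3 that rose were Scd2, a stearoyl-CoA desaturase that makes monounsaturated fatty acids, Wfdc3, a small secreted protein with the disulphide core shared by protease inhibitors, and Prss8, the epithelial serine protease prostasin. The 3 that fell were Colec10, a secreted collectin (collagen-like lectin) that binds microbial sugars, Sult5a1, a cytosolic sulfotransferase, and Vmn2r25, a vomeronasal receptor whose values lay in the range of background. In all 6 the tumours and controls did not overlap, which over all genes held for 5.18% (2.11% with tumours above and 3.08% with tumours below the controls). The 6 were picked by small p from these same values, so their lack of overlap is no further support. Without adjustment, 1316 genes (5.65%) were higher and 1601 (6.88%) lower at an unadjusted p under 0.05.

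Scd2 (Entrez gene 20250) was at 5.13, 4.93 and 4.89 in controls 10, 11 and 12 and at 7.44 (mouse 93), 8.92 (median) and 9.82 (mouse 123) in tumours. The lowest tumour lay 2.31 above the highest control, the widest such gap of any gene. The means were 8.77 ± 0.91 (SD, n = 6) and 4.98 ± 0.13 (SD, n = 3), and Scd2 rose 13.8-fold (log2 difference 3.79, SE 0.48, adjusted p = 0.0104). Within mouse 121 the 3 tumours read 9.66, 9.91 and 8.27. Adjacent liver, at 3.68 to 5.73, bracketed the controls, and tumours were also past the threshold against it (difference 3.95, adjusted p = 0.00277). Over all genes 0.155% passed in tumours against adjacent liver. That contrast ignores that 4 mice gave both tissues: with the mouse as a fixed replicate block in these 4 mice 0 genes passed in limma (3145 at an unadjusted p under 0.05), with Scd2 at 4.36 (adjusted p = 0.0885), Wfdc3 at 1.94 (adjusted p = 0.0899) and Prss8 at 1.21 (adjusted p = 0.113). When the mouse was instead a random term across the 14 values, these 3 genes passed (adjusted p = 0.00182, 0.00344 and 0.0201 in that order).

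Wfdc3 (Entrez gene 71856) was at 3.45, 4.32 and 3.88 in controls and at 5.67, 6.14 and 7.005 (lowest, median, highest) in tumours. Every tumour was at least 1.34 above the highest control, and 1 control lay in the range of the receptor genes. It rose (log2 difference 2.35, SE 0.28, adjusted p = 0.0104), and against adjacent liver the difference was 2.06 (adjusted p = 0.00483). Prss8 (Entrez gene 76560) was at 5.19, 5.37 and 5.83 in controls and at 6.51, 6.86 and 7.45 in tumours. The groups did not overlap, and tumours varied by no more than the controls (SD 0.31 against 0.33). Prss8 rose 2.70-fold (log2 difference 1.43, SE 0.20, adjusted p = 0.0191), with a difference of 1.08 against adjacent liver (adjusted p = 0.0305).

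Colec10 (Entrez gene 239447) was at 6.18, 6.12 and 5.21 in controls and at 3.03, 3.67 and 4.77 in tumours. Control 12 was the low control and tumour 93 the high tumour, 0.44 apart. It fell (log2 difference -2.07, SE 0.31, adjusted p = 0.0385). As 4 of the 6 tumours lay in the range of the receptor genes, the size of the fall is not exact. Adjacent liver ran from 4.76 to 5.36 and overlapped both groups, with a mean between theirs, and the difference of tumours from it was -1.26 (adjusted p = 0.0643). Sult5a1 (Entrez gene 57429) was at 6.73, 6.72 and 6.24 in controls and at 4.14, 4.50 and 5.20 in tumours, again without overlap. It fell 3.92-fold (log2 difference -1.97, SE 0.30, adjusted p = 0.0385). Adjacent liver, at 4.01 to 5.49, lay with the tumours (tumour minus adjacent -0.20, adjusted p = 0.769), at -1.77 from control. Vmn2r25 (Entrez gene 545874) read 2.67, 2.66 and 2.66 in controls and 2.06 to 2.22 in tumours (difference -0.50, SE 0.06, adjusted p = 0.0104). It was named after its value was seen, and adjacent liver, at 2.13 to 2.29, overlapped the tumours. Receptor genes of these families were lower more often than higher, 137 (10.1%) against 8 (0.59%) of 1356 at an unadjusted p under 0.05, with a median of -0.08 beside -0.04 over all genes.

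**Figure D2:**
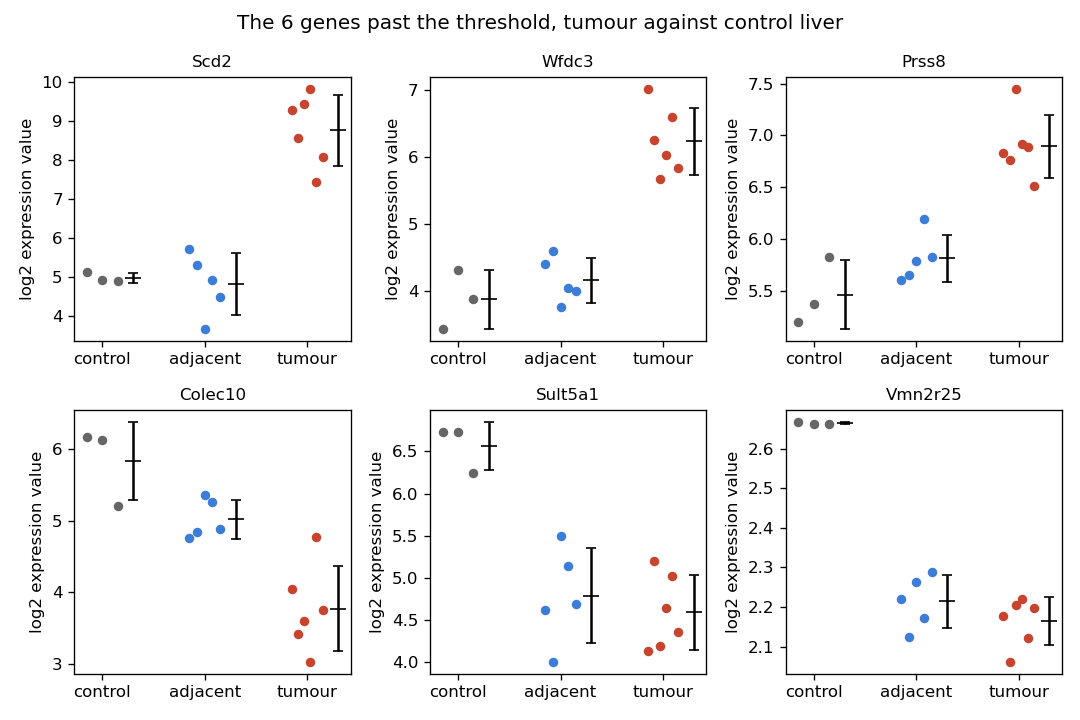
Log2 expression value (y axis) of the 6 called genes in control liver (grey, 3 mice), adjacent liver (blue, 5 mice) and tumours (red, 6 mice); points are mice, and bars beside them are the mean ± SD. Scd2, Wfdc3 and Prss8 in tumours lay above every control and adjacent liver, whereas adjacent liver lay with the tumours for Sult5a1 and Vmn2r25.

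Promoter windows are shown for a gene that rose and a gene that fell, to print the letters around their starts. Of the 6 called genes 3 had a window in the RefSeq promoter table (build GRCm38.p6), which spans 250 bases before to 50 after the start. The Wfdc3 window is chr2:164743218-164743517 on the minus strand, and the Sult5a1 window is chr8:123158231-123158530 on the minus strand. Both lie inside the annotated gene spans, which reach 164745994 for Wfdc3 and 123158914 for Sult5a1. The starts used are thus not the outermost ends of these genes. Capitals mark matches to the TCF/LEF core CTTTGA, the TATA box TATAAA, the CCAAT box CCAAT or the E-box CACGTG, searched on both strands.
Wfdc3: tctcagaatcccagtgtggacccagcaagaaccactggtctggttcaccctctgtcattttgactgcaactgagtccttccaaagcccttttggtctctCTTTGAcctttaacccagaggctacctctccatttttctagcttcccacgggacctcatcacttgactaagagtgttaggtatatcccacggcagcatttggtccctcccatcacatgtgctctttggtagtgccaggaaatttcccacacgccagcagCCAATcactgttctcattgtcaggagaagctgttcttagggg
Sult5a1: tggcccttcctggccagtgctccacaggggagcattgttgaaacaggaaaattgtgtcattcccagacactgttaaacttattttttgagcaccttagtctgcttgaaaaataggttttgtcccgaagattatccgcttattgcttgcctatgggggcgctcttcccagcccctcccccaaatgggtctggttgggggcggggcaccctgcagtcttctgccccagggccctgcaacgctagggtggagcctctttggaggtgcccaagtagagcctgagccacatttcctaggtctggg
The Wfdc3 window held CTTTGA from position -151 relative to the start and CCAAT from position 9. None of the 4 motifs was in the Sult5a1 window. Over all 32851 windows of the table, 16% held CTTTGA, 37.4% CCAAT, 13.6% TATAAA and 7.15% CACGTG. A match is a run of letters only.

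The count of 6 rested on which mice were in the fit. It was 0 without control 12 (limma, smallest adjusted p = 0.0598, 1993 genes at an unadjusted p under 0.05), 2 without control 11, 3 without tumour 121 or tumour 123, 76 without tumour 90 and 242 without tumour 93. With the 11 arrays of tumours and controls alone 7 genes were called, of which 4 were among the 6: Scd2 and Vmn2r25 (adjusted p = 0.0481 each) and Wfdc3 and Sult5a1 (adjusted p = 0.0482 each), while Prss8 (adjusted p = 0.0846) and Colec10 (adjusted p = 0.156) missed the threshold. Wfdc3 was called in 21 and Scd2 in 20 of the 22 settings run, Vmn2r25 in 18 of 21, Prss8 in 16, Sult5a1 in 12 and Colec10 in 11.

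Control 10 stood apart from the other controls in genes of inflammation. S100a8, a subunit of the neutrophil protein calprotectin, was at 8.71 in control 10 against 3.54 and 3.34, and Saa1, a serum amyloid, at 12.15 against 9.28 and 8.66. Without control 10, 10 genes were called (0.043%), 6 higher (0.0258%) and 4 lower (0.0172%), and 3 of these were among the 6: Scd2 (3.86), Wfdc3 (2.13) and Vmn2r25 (-0.50), each at adjusted p = 0.0428. Prss8 (1.30, adjusted p = 0.0623), Colec10 (-1.90) and Sult5a1 (-1.89, each adjusted p = 0.0849) kept their direction and missed the threshold.

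In the genes that gained the threshold without control 10, that mouse lay nearer to the tumours than the other controls did. These genes were picked by that gain, so this position follows largely from the choice and is not a separate result. Ly6d, a GPI-anchored surface protein of the Ly6 family, was at 7.52 in control 10 and 5.24 and 4.99 in the others, against 7.89, 10.80 and 11.42 in tumours. Its difference was 4.45 (SE 0.77, adjusted p = 0.0564) with all controls and 5.25 (adjusted p = 0.0428) without control 10. Lgals1, the sugar-binding protein galectin-1, was at 8.74 against 7.14 and 7.10 in controls and at 8.96, 9.73 and 9.87 in tumours. It differed by 1.94 (adjusted p = 0.0564) with all controls and by 2.48 (adjusted p = 0.00621) without control 10. Ugt2b38, a UDP-glucuronosyltransferase, was at 2.02 in control 10 and 5.34 and 5.47 in the others, and at 1.92 to 2.81 in tumours, so control 10 alone overlapped the tumours. Its difference moved from -1.97 (adjusted p = 0.179) to -3.10 (adjusted p = 0.00516). All 6 tumours and control 10 lay within or below the range of the receptor genes, so the size is not exact. The others, named after their values were seen except Snora64, were Hexa, a lysosomal hexosaminidase subunit (1.36, adjusted p = 0.0428), Serpinb6b, a protease inhibitor (1.94, adjusted p = 0.0451), the small nucleolar RNA Snora64 (-2.70, adjusted p = 0.0428) and the olfactory receptor Olfr822 (-0.62, adjusted p = 0.0451).

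Below the threshold, 74 genes had an adjusted p under 0.1, of which 48 were higher and 26 lower. Next to the called genes in order of p among the higher were Ccdc120 (0.99, SE 0.16), the peroxidase Gpx7 (1.18, SE 0.20), the mitochondrial ATPase inhibitor Atpif1 (1.02, SE 0.17), Ly6d, the glycogen phosphorylase Pygb (1.71, SE 0.30), Lgals1 and App, the amyloid precursor protein (1.51, SE 0.27). Their adjusted p ran from 0.0564 to 0.0652 and none of them overlapped with controls. Among the lower were Hhip, an antagonist of Hedgehog ligands (-0.70, SE 0.11), Kcnrg (-1.21, SE 0.20), Snora64 (-2.27, SE 0.38), the let-7 precursor Mirlet7b (-0.62, SE 0.11), Zfp616 (-0.53, SE 0.09), the complement gene C4a (-1.68, SE 0.29), Obp2a (-1.19, SE 0.21) and the adhesion molecule Cadm4 (-0.80, SE 0.14), with adjusted p from 0.0564 to 0.0652. Hhip, Mirlet7b and Zfp616 lay within or below the range of the receptor genes in all 3 controls and all 6 tumours. Obp2a did so in 2 controls and all 6 tumours. The falls of these genes are therefore not exact in size. Receptor genes were themselves lower more often than higher, and whether these falls go beyond that shift was not tested. C4a was at 6.98, 6.78 and 6.87 in controls and at 4.71, 5.21 and 5.67 in tumours, so the groups lay 1.11 apart; C4a has a near-identical copy, C4b, from which its signal may not be separate.

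Gene groups are described by how many measured members had an unadjusted p under 0.05 in each direction, beside 5.65% higher and 6.88% lower over all genes, and by the median difference of their members, beside -0.04 over all genes. No group was tested as a set, and genes of a group share mice and may share regulation. The lists and their members were chosen with earlier results of these data known. Their counts and directions are therefore not independent evidence. The shares depended on signal level. Of genes with a mean value under 4.45, 2.57% were higher and 6.73% lower. Of the brighter genes, 8.70% were higher and 7.02% lower. Without control 10 these shares over all genes were 5.74% and 7.7% (13.4% in all), and the groups did not overlap in 5.32% (tumours above) and 8.65% (tumours below), 14% in all. A difference is not exact in size where a group lies in the range of the receptor genes, as all 3 controls did for Slc7a11, Elovl7, Prom1, Loxl2, Bex1, Gpc3 and Foxm1 below. In bulk tissue, fewer cells of a type and less RNA per cell cannot be told apart.

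**Figure D3:**
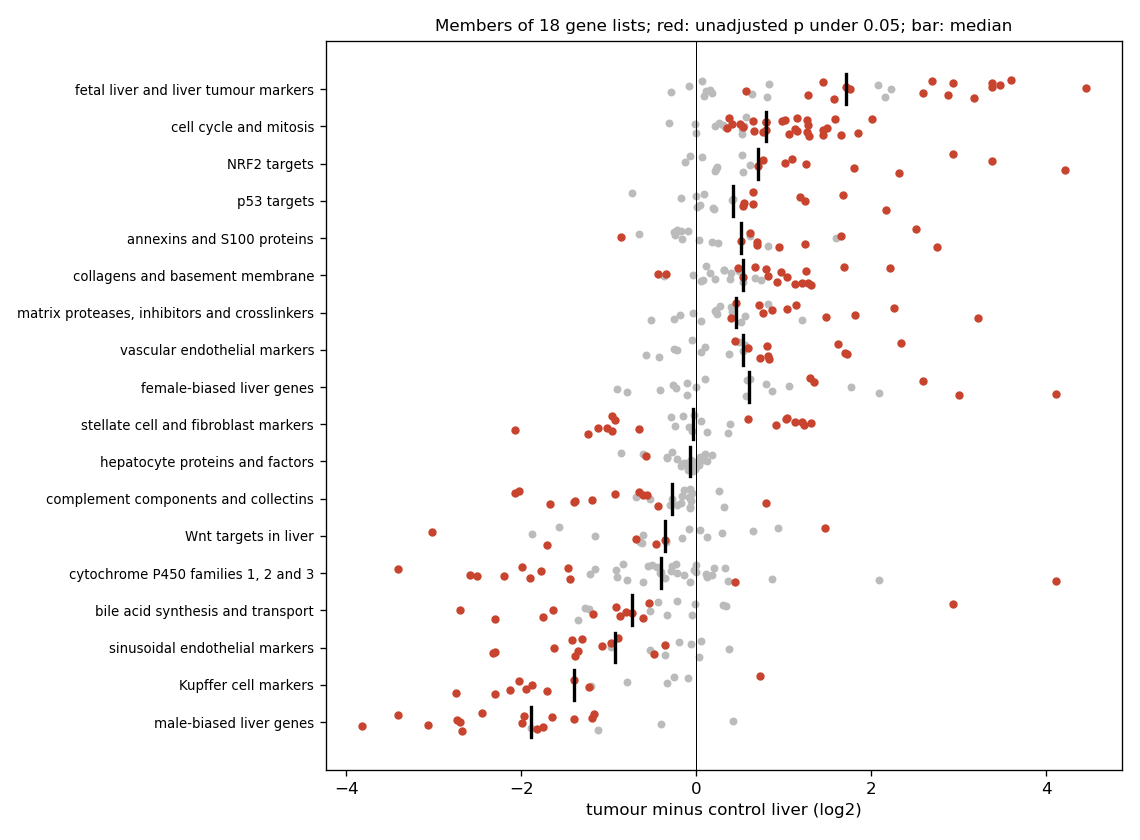
Difference of tumours from control liver (x axis, log2) for each measured member of 18 gene lists (y axis); red points have an unadjusted p under 0.05 and black bars are list medians. Fetal liver and liver tumour markers (median 1.71) and male-biased genes (median -1.89) had the medians farthest from 0.

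Genes of proliferation were mostly higher. Of 39 cell cycle and mitosis genes 28 were higher and 0 lower, with a median of 0.79. Rrm2, a subunit of ribonucleotide reductase, was at 5.34, 5.15 and 5.28 in controls and 6.02, 6.73 and 7.54 in tumours (difference 1.49, SE 0.29, adjusted p = 0.0761), without overlap. Prc1, which bundles spindle microtubules, was at 1.58 (SE 0.41) and overlapped. Groups did not overlap in 3 of the 39 members, and in 13 without control 10. The list mean relative to the control mean was -0.11 in tumour 90 and 0.53 to 1.25 in the other 5 tumours, against -0.26 to 0.37 in controls. Tumour 90 thus lay within the controls in this list: its Mki67, the proliferation antigen, was at 4.57 and its Top2a, topoisomerase II alpha, at 3.85, whereas the other tumours lay at 5.97 to 6.62 and 5.61 to 6.52. Mki67, Top2a, Ube2c (2.01, SE 0.52), Cdk1 (1.84, SE 0.52) and Foxm1 (0.80, SE 0.21) were chosen after their values were seen, and 0 members of the list were called.

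Of 29 fetal liver and liver tumour markers 16 were higher and 0 lower (median 1.71, and 1.31 to 1.94 with each mouse left out in turn). This list included Ly6d, Pygb, Cbr3, Tspan8 and Abcc4. Its content, like that of the other lists, was chosen with results of these samples known, so its direction is not independent evidence. Tumours lay between 0.89 (mouse 93) and 2.74 (mouse 123) above the control mean and controls between -0.19 and 0.29, so list means did not overlap. Members were spread over different tumours. H19, an imprinted RNA of fetal liver, was at 4.23 to 4.43 in controls and from 4.30 (mouse 124) through a median of 8.06 to 9.72 (mouse 123) in tumours (difference 3.17, SE 0.96, adjusted p = 0.189). Gpc3, glypican-3, was at 2.996 to 3.66 in controls and 10.39 in tumour 123 with a tumour median of 4.08 (2.16, SE 1.24), and Afp, alpha-fetoprotein, was at 9.23 in tumour 123 and 5.24 to 6.05 in the others. Sox4, a transcription factor, had no overlap (1.28, SE 0.29, adjusted p = 0.106), nor did Bex1 (2.70, SE 0.72). Spink1, a trypsin inhibitor, was at 2.87 (SE 0.81) and the Golgi protein Golm1 at 1.75 (SE 0.48), both with overlap through control 10. H19, Gpc3, Afp, Sox4, Bex1, Spink1 and Golm1 were chosen after their values were seen.

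Targets of NRF2, the regulator of antioxidant and detoxifying genes, were higher in 10 and lower in 0 of 19 (median 0.70), and 9 of them did not overlap with controls. The share without overlap over all genes was 2.11% in this direction. Cbr3, a carbonyl reductase, was at 3.80, 3.76 and 3.94 in controls and 5.30, 6.84 and 9.62 in tumours (difference 3.38, SE 0.72, adjusted p = 0.0998). Nqo1, a quinone reductase, was at 5.73, 5.14 and 4.76 in controls and 6.19, 7.48 and 9.28 in tumours (2.31, SE 0.51, adjusted p = 0.103). For both genes the highest tumour was that of mouse 124. Slc7a11, the cystine transporter, was at 2.73 to 2.80 in controls and from 3.46 in tumour 121 to 10.50 in tumour 124 (4.22, SE 1.22), and Srxn1, sulfiredoxin, at 1.80 (SE 0.40); these were chosen after their values were seen. The list mean of tumour 124 was 2.43 above the control mean, the other tumours lay at 0.49 to 1.41, and controls at -0.19 to 0.21. Of 28 aldo-keto reductases, carbonyl reductases and aldehyde dehydrogenases only 3 were higher and 2 lower (median -0.05, but 0.05 without tumour 90 and 0.07 without tumour 123), with Cbr1 at 1.76 (SE 0.37).

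Of 18 p53 targets 8 were higher and 0 lower (median 0.41). Cdkn1a, an inhibitor of cyclin-dependent kinases, was at 8.80, 7.91 and 6.55 in controls and 8.76, 10.06 and 10.95 in tumours (2.17, SE 0.56), so only the highest control and the lowest tumour overlapped. Ccng1, cyclin G1, did not overlap (0.53, SE 0.14, adjusted p = 0.132). In the unfolded protein response list 4 of 25 were higher and 0 lower (median 0.14, but 0.25 without control 11), with the stress factors Atf3 (1.24, SE 0.30) and Trib3 (1.22, SE 0.36). Of 30 genes of glycolysis, gluconeogenesis and glycogen 3 were higher (median 0.01, but -0.10 without tumour 81), with Pygb and Ndrg1, a gene induced by hypoxia (1.66, SE 0.37).

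**Figure D4:**
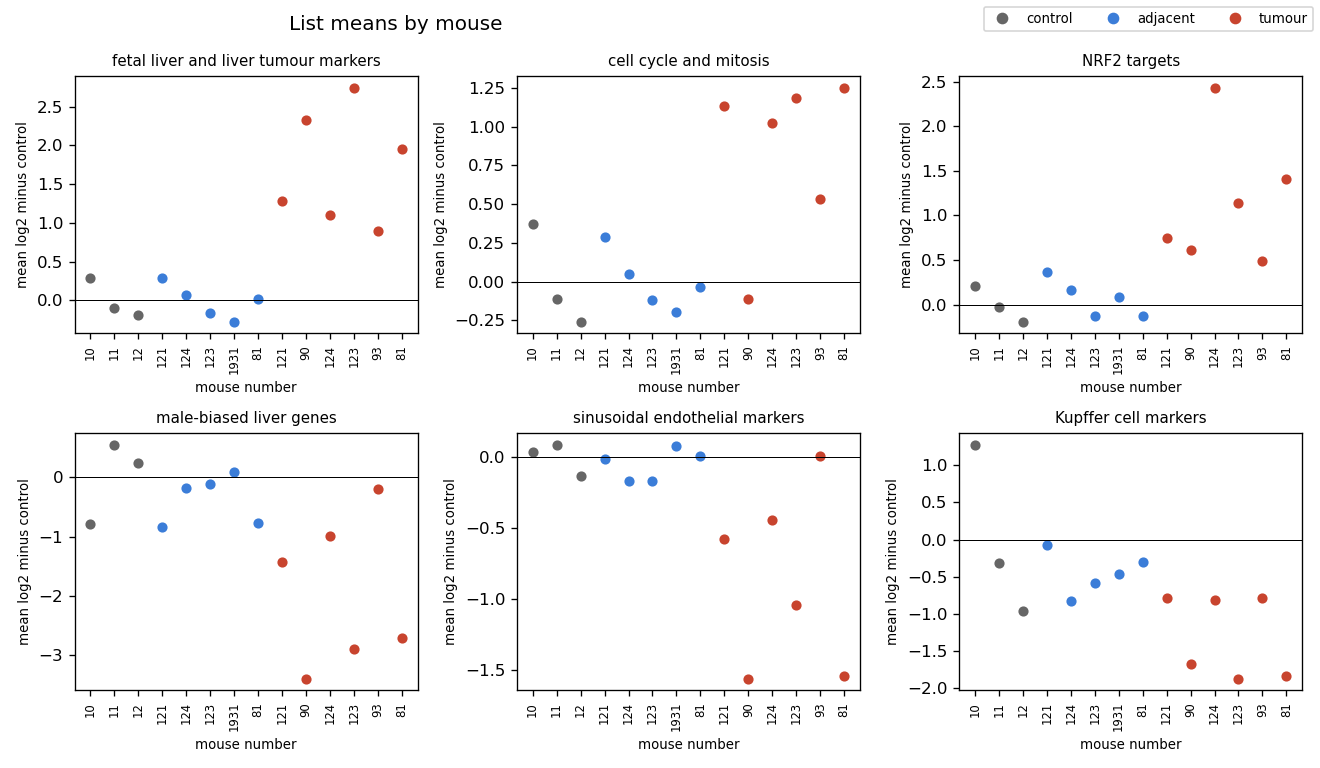
Mean log2 value of 6 gene lists minus the mean of the controls (y axis) in each mouse (x axis, mouse number), for controls (grey), adjacent livers (blue) and tumours (red). Tumour 90 lay at -0.11 in the cell cycle list and at -3.40 in the male-biased list, whereas tumour 93 lay closest to the controls in the male-biased list, at -0.20.

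Scd2 belongs to a family that did not move together. Of 19 fatty acid desaturases and elongases 3 were higher and 2 lower at an unadjusted p under 0.05, with a median of -0.01 (0.11 without control 11 and 0.10 without tumour 90), and Scd2 alone was called. Scd1, the main stearoyl-CoA desaturase of adult liver, was at 11.64, 11.80 and 11.44 in controls and 11.001, 11.77 and 11.93 in tumours (0.04, SE 0.17), so the groups overlapped. Elovl7, a fatty acid elongase, was at 3.45 to 3.70 in controls and 4.63 to 8.02 in tumours (2.42, SE 0.54, adjusted p = 0.103). Elovl3, an elongase of male liver, was at 9.01 to 10.39 in controls and ranged from 2.67 in tumour 90 to 10.14 in tumour 93 (-3.82, SE 1.34, adjusted p = 0.251). These 3 genes were chosen after their values were seen. Fatty acid synthesis genes (1 higher and 2 lower of 18, median -0.15, but -0.26 without tumour 124 and -0.05 without tumour 81) had Srebf1 at -0.54 (SE 0.22) and Pnpla3 at 0.92 (SE 0.38). The cholesterol list (1 higher of 18, median 0.14, but 0.002 without tumour 124 and 0.38 without tumour 81) had Dhcr7 at 0.50 (SE 0.22), and the fatty acid oxidation list (2 higher of 21, median 0.04, but from -0.13 without control 10 to 0.22 without tumour 90) had the hormone gene Fgf21 at 1.76 (SE 0.34, adjusted p = 0.0692), without overlap.

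Wfdc3 and Prss8 were the called members of 28 epithelial proteases and their inhibitors, of which 7 were higher and 3 lower (median 0.04, but 0.21 without control 10). The serine proteases Prss23 (0.91, SE 0.30) and Tmprss2 (1.21, SE 0.40), and Wfdc1 (-0.75, SE 0.22), were chosen after their values were seen, as was Scnn1a, a subunit of the epithelial sodium channel that prostasin activates. Scnn1a was at 6.84, 7.89 and 7.58 in controls and 4.14, 5.72 and 6.90 in tumours (-1.90, SE 0.44, adjusted p = 0.112), opposite in sign to Prss8 and with overlap between control 10 and tumour 93.

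Colec10 is a complement-activating lectin that in liver marks hepatic stellate cells. Of 29 complement components and collectins 11 were lower and 1 higher (median -0.28), and 6 of them lay below every control; without control 10 these were 5 lower and 3 higher, with a median of -0.07. The median was -0.59 without control 12, -0.43 without tumour 90 and -0.16 without tumour 81. C8b, a subunit of the membrane attack complex, was at 10.89, 11.37 and 11.06 in controls and 8.88, 9.85 and 10.72 in tumours (-1.20, SE 0.30, adjusted p = 0.132). C8a was at 6.69 in tumour 81 and 9.42 to 10.06 in the others, below the controls at 10.42 to 10.76. Masp2, a protease of the lectin pathway (-0.56, SE 0.16), and Fcna, ficolin A of macrophages (-2.03, SE 0.49), did not overlap with controls, whereas the collectins Mbl1 (-0.93, SE 0.35) and Colec11 (-0.66, SE 0.25) did. All but Colec10 were chosen after their values were seen.

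Markers of stellate cells and fibroblasts divided: 8 of 26 were higher and 8 lower, with a median of -0.04 (-0.15 without control 12). Colec10 was the called member. Among the lower members were Lrat, which esterifies retinol (-1.24, SE 0.35), the growth factor Gdf2 (-0.97, SE 0.22), Ecm1 (-1.13, SE 0.26), the receptor Vipr1 (-1.02, SE 0.19, adjusted p = 0.0674) and the proteoglycan Dcn (-0.94, SE 0.25), each without overlap. Among the higher members, Acta2, smooth muscle actin, was at 6.66, 6.396 and 6.394 in controls and 7.60, 7.72 and 7.81 in tumours (1.23, SE 0.26, adjusted p = 0.0998), and Pdgfrb, a platelet-derived growth factor receptor, lay at 0.91 (SE 0.27), neither overlapping. Col1a1, a chain of collagen I, was at 1.31 (SE 0.44) and overlapped through tumour 93. Apart from Colec10 these genes were chosen after their values were seen. The summed linear level of the list ran from 2215 to 2593 in controls and from 1819 to 2924 in tumours, so the groups overlapped; the part of stellate cell number in the value of Colec10 was not tested.

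Matrix genes were more often higher than lower. Of 32 collagens and basement membrane genes 15 were higher and 2 lower (median 0.53), and of 27 matrix proteases, inhibitors and crosslinkers 11 were higher and 0 lower (median 0.45). Nid1, a basement membrane glycoprotein, was at 5.55, 5.46 and 5.15 in controls and 6.25, 7.60 and 8.91 in tumours (2.21, SE 0.47, adjusted p = 0.0998). Mmp12, the macrophage metalloelastase, was at 4.57, 5.01 and 4.59 in controls and 6.57, 7.995 and 9.52 in tumours (3.22, SE 0.69, adjusted p = 0.0998). Neither gene overlapped, and the Mmp12 groups lay 1.56 apart. Lama4, a laminin chain, was at 0.96 (SE 0.22) and Loxl2, a collagen crosslinking oxidase, at 2.25 (SE 0.47, adjusted p = 0.0992). Tumour 93 had the smallest mean of the collagen list, 0.002 above the controls, and the other tumours reached 1.09.

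Cell surface and membrane-binding proteins showed a similar pattern. Of 23 annexins and S100 proteins 9 were higher and 1 lower (median 0.51), and of 23 tetraspanins 8 were higher and 0 lower (median 0.17). Without control 10 the medians were 0.78 (12 higher) and 0.29, and without control 12 the tetraspanin median was 0.05. The annexin and S100 list mean was 0.59 in control 10, -0.22 and -0.37 in controls 11 and 12, and 0.13 to 0.74 in tumours. These list means thus overlapped, whereas those of tetraspanins did not (-0.15 to 0.21 in controls, 0.23 to 0.80 in tumours). Anxa2 was at 8.01, 6.69 and 5.70 in controls and 8.92, 9.48 and 10.25 in tumours (2.74, SE 0.53, adjusted p = 0.0735). Anxa7, another annexin, lay at 0.70 (SE 0.13), and both had no overlap. Cd63, a tetraspanin of late endosomes, was at 7.68, 7.48 and 7.18 in controls and 8.44, 10.15 and 10.70 in tumours (2.46, SE 0.49, adjusted p = 0.0853), also without overlap. Tspan8, a tetraspanin in the fetal and cholangiocyte lists, was at 4.40 to 4.58 in controls and 5.34 to 10.80 in tumours (3.47, SE 0.93). Of 18 cholangiocyte markers 4 were higher and 0 lower (median 0.27), and the defining keratin Krt19 overlapped (0.09, SE 0.29; chosen after its value was seen).

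Sinusoidal and vascular endothelial markers lay on opposite sides of the controls. Of 20 sinusoidal markers 12 were lower and 0 higher (median -0.94), and of 21 vascular markers 10 were higher and 0 lower (median 0.53). Gata4, a transcription factor of sinusoidal cells, was at 6.92, 6.84 and 6.66 in controls and 5.45, 5.88 and 6.52 in tumours (-0.90, SE 0.22, adjusted p = 0.132). Rspo3, the ligand that amplifies Wnt signalling near the central vein, was at 5.76, 6.42 and 5.72 in controls and 3.42, 4.57 and 5.68 in tumours (-1.42, SE 0.39, adjusted p = 0.150). Neither overlapped, and tumour 93 was nearest to the controls in both. The scavenger receptor Stab2 (-1.38, SE 0.46) did not overlap, while the lectin Clec4g (-2.33, SE 0.79) and the nuclease Dnase1l3 (-1.63, SE 0.53) did through tumour 93. Stab2, Clec4g and Dnase1l3 were chosen after their values were seen.

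Of the vascular genes, Emcn, an endothelial sialomucin, was at 5.23, 5.32 and 5.22 in controls and 5.79, 7.05 and 7.84 in tumours (1.72, SE 0.38, adjusted p = 0.103). Cd34, which normal sinusoids largely lack, was at 5.24, 4.96 and 4.71 in controls and 5.24, 6.89 and 7.36 in tumours (1.69, SE 0.39, adjusted p = 0.106), where tumour 93 met control 10. Pecam1, a pan-endothelial adhesion molecule (0.82, SE 0.30), and Esm1, a gene of sprouting endothelium (2.34, SE 0.55), were chosen after their values were seen. The sinusoidal list mean of tumour 93 was 0.01 above the controls and the other tumours lay at -0.44 to -1.56. Without control 10 the medians were -0.73 and 0.56.

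Macrophage markers depended on control 10. Of 15 Kupffer cell markers, the resident macrophages of liver, 9 were lower and 1 higher (median -1.40), but without control 10 these were 5 and 1 with a median of -0.72. The higher member was Cdh5 (0.73), an endothelial cadherin that the list also holds. The list mean of control 10 was 1.27 above the control mean, with controls 11 and 12 at -0.32 and -0.95, and tumours at -1.87 to -0.78. Tumours 121, 124 and 93, at -0.78 to -0.81, thus lay above control 12. Marco, a scavenger receptor, was at 8.06, 5.85 and 4.85 in controls and 3.61, 3.98 and 4.90 in tumours (-2.13, SE 0.49; -1.23 without control 10). Id3, a transcription regulator that marks these cells but is not confined to them, was at 7.65, 8.88 and 8.04 in controls and 5.62, 6.37 and 7.26 in tumours (-1.88, SE 0.38, adjusted p = 0.0853), and at -2.15 without control 10. Cd163 (-1.23, SE 0.31) and Timd4 (-1.71, SE 0.47), receptors of resident macrophages chosen after their values were seen, did not overlap with controls, and without control 10 they were at -0.72 and -0.87. For Cd163 3 tumours, for Timd4 2 and for Marco 1 lay within or below the range of the receptor genes. The sizes of these falls are therefore not exact.

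Lists of other immune cells differed in how many members passed an unadjusted p under 0.05, and the medians of most moved with control 10. Neutrophil markers had 1 of 19 higher and 4 lower, with a median of -0.25 that was 0.17 without control 10, -0.73 without control 11 and -0.52 without control 12, as well as -0.42 without tumour 90 and -0.40 without tumour 123. Mpo was at 6.46, 4.20 and 4.34 in controls and 3.50 to 4.01 in tumours. Interferon-stimulated genes had 0 of 21 past an unadjusted p under 0.05 in limma and 0 called, with a median of 0.28, which was 0.73 without control 10, -0.04 without control 11, -0.08 without control 12 and -0.07 without tumour 81. Their mean was 0.93 in control 10 and 1.85 in tumour 81, and other tumours lay at -0.32 to 0.42. MHC class II and antigen processing genes had 4 of 16 higher and a median of 0.46, or 0.86 without control 10 and 0.09 without control 12, with H2-Aa at 1.69 (SE 0.62) and H2-Eb1 at 1.16 (SE 0.45). The infiltrating macrophage and dendritic cell list had 5 of 17 higher and 1 lower (median 0.20, or 0.69 without control 10 and 0.31 without tumour 93). T and natural killer cell markers had 0 of 21 past an unadjusted p under 0.05 in limma and 0 called (median -0.01), and B cell and plasma cell markers 1 higher and 1 lower of 14 (median -0.08). Acute phase proteins had 1 higher and 2 lower of 25 (median -0.11, or 0.13 without control 10, -0.23 without control 11, -0.22 without tumour 123 and -0.28 without control 12). Saa3 was at 10.08, 8.71 and 7.10 in controls and 6.51 to 7.79 in tumours.

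**Figure D5:**
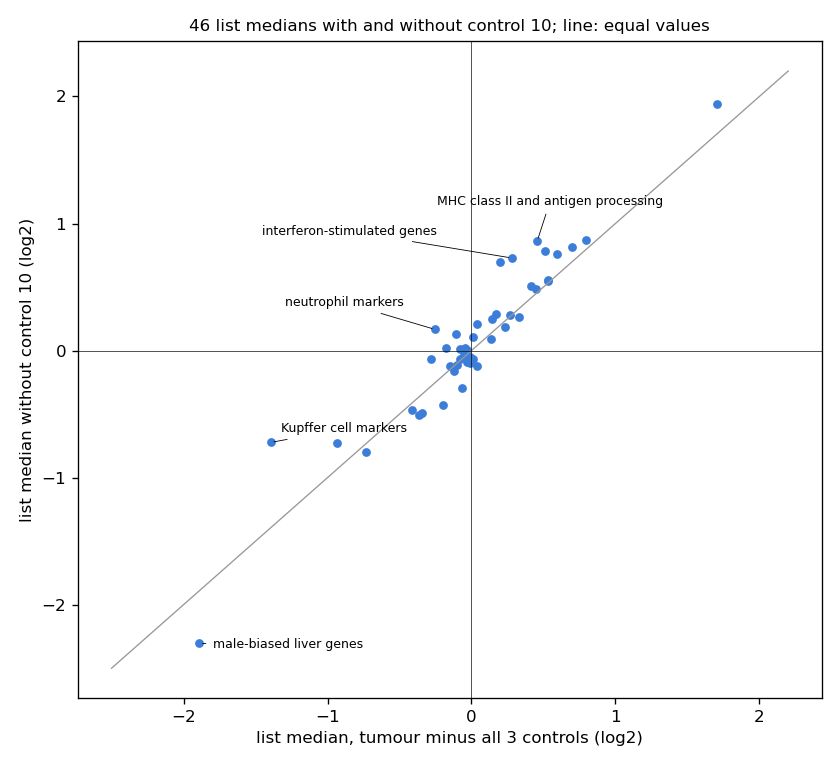
Median difference of tumours from control liver (log2) of each gene list with all 3 controls (x axis) and without control 10 (y axis); each point is a list, and the grey line marks equal values. Kupffer cell markers moved from -1.40 to -0.72 and neutrophil markers from -0.25 to 0.17, and male-biased genes from -1.89 to -2.31.

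Among genes that differ between the sexes in mouse liver, male-biased genes were mostly lower and some female-biased genes higher, in mice that were all male. Of 19 male-biased genes 15 were lower and 0 higher (median -1.89, and -2.31 without control 10), and of 22 female-biased genes 5 were higher and 0 lower (median 0.60). Susd4, a complement regulator with male-biased expression, was at 7.16, 7.09 and 7.61 in controls and 3.68, 4.09 and 6.96 in tumours (-2.74, SE 0.65, adjusted p = 0.113). Cyp2u1, a fatty acid hydroxylase, was at 6.22, 8.13 and 7.64 in controls and 4.85, 5.08 and 6.50 in tumours (-1.996, SE 0.44), with overlap between control 10 and tumour 93 alone. Cyp2a4, a steroid hydroxylase of female liver, was at 7.52, 6.08 and 5.93 in controls and 9.08, 10.91 and 11.64 in tumours (4.11, SE 0.77, adjusted p = 0.0674), with 1.55 between the groups; a close paralogue, Cyp2a5, may share its signal. Prom1 was at 2.59 (SE 0.56, adjusted p = 0.102). Sult1e1, oestrogen sulfotransferase, was at 3.46 to 4.43 in controls and 4.67 to 8.70 in tumours (2.999, SE 0.82).

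The male-biased list mean differed among tumours: it was -3.40 in mouse 90, -2.89 in mouse 123, -2.71 in mouse 81, -1.44 in mouse 121, -0.995 in mouse 124 and -0.20 in mouse 93. Control 10 was at -0.79, below tumour 93, and the other controls were at 0.55 and 0.24. Cyp2f2, listed with both male-biased genes and the P450 family, ran from 4.50 in tumour 90 to 11.57 in tumour 124 against 10.89 to 11.20 in controls (-3.41, SE 1.29). In the growth hormone axis, which sets this pattern in liver, 3 of 21 genes were higher and 5 lower (median -0.03). Ghr, the growth hormone receptor, was at 10.15 to 10.41 in controls and 8.86 to 10.36 in tumours (-0.87, SE 0.29), and Esr1, the oestrogen receptor alpha, was at 7.44, 7.41 and 6.84 in controls and 5.36, 6.06 and 6.76 in tumours (-1.21, SE 0.25, adjusted p = 0.0885) without overlap. Sult1e1, Cyp2f2, Ghr and Esr1 were chosen after their values were seen. Igf2r, which clears IGF2, was at 0.80 (SE 0.21) and Igfbp4 at -0.38 (SE 0.12).

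Sult5a1 was the called member of 18 sulfotransferases, of which 3 were higher and 3 lower (median -0.03). Other drug- and bile-handling groups had medians below 0, but their list means differed among tumours. Of 41 cytochromes P450 of families 1, 2 and 3, 9 were lower and 2 higher (median -0.41, and -0.17 without tumour 81). Of 23 bile acid genes 11 were lower and 1 higher (median -0.74). In tumours 90, 123 and 81 the P450 list mean was -0.75, -0.80 and -1.78, and the bile acid mean -1.50, -1.64 and -0.86. In tumours 121, 124 and 93 they were -0.11, 0.06 and 0.33, and -0.37, 0.03 and 0.17. Controls lay at -0.02 to 0.02 for P450 genes and at -0.29 to 0.15 for bile acid genes. The higher bile gene was Abcc4, an exporter of bile acids and conjugates, at 4.10, 4.13 and 4.02 in controls and 5.18, 7.02 and 9.56 in tumours (2.93, SE 0.66, adjusted p = 0.106), without overlap. Slc27a5, a bile acid ligase, was at -0.74 (SE 0.26). The uptake transporter Slc10a1 (-1.64, SE 0.60) overlapped with controls through tumour 93, and the hydroxylase Cyp8b1 (-2.31, SE 0.90) through tumours 93 and 81. The transporter Slco1a1 (-2.71, SE 1.12) overlapped through control 10, at 7.67 where the other controls were at 10.27 and 10.26. All 3 were chosen after their values were seen. Cyp7a1, the rate-limiting enzyme of bile acid synthesis, was at 3.05 in tumour 123 with a tumour median of 8.43, against 8.44 to 8.96 in controls (-1.36, SE 1.04), and was also chosen after its value was seen.

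Wnt target genes of liver did not show a general increase. Of 21 targets 5 were lower and 1 higher (median -0.36, and -0.51 without control 10). Slc1a2, a glutamate transporter of pericentral hepatocytes, was at 8.54, 8.23 and 9.24 in controls and 4.20, 5.37 and 7.83 in tumours (-3.03, SE 0.69, adjusted p = 0.107), without overlap. Glul was at 11.32, 10.42 and 11.22 in controls and 7.98, 9.29 and 10.76 in tumours (-1.71, SE 0.49, adjusted p = 0.173), and tumour 93 overlapped. The feedback inhibitors Axin2 (-0.47, SE 0.15), Nkd1 (-0.36, SE 0.12) and Notum (-0.69, SE 0.25), and the R-spondin receptor Lgr5 (-0.63, SE 0.30), were chosen after their values were seen, as was Myc, the higher member, at 5.13 to 6.24 in controls and 6.62 to 8.24 in tumours (1.47, SE 0.43, adjusted p = 0.183). For Nkd1, 2 controls and all 6 tumours lay within or below the range of the receptor genes, so its difference is not exact in size. Periportal genes had 1 higher and 3 lower of 13 (median -0.20, but -0.43 without control 10, -0.06 without control 11, -0.07 without tumour 123 and -0.50 without tumour 81), with Hal, histidine ammonia-lyase, at -1.92 (SE 0.41) and the apolipoprotein Apoa4 at 1.64 (SE 0.47).

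General hepatocyte genes lay close to control liver. Of 26 secreted hepatocyte proteins and hepatocyte transcription factors 0 were higher and 1 was lower (Cebpa, -0.58, SE 0.20), and 0 were called in limma, with a median of -0.08; Alb was at -0.04 (SE 0.13), Ttr at -0.10 (SE 0.09) and Hnf4a at -0.22 (SE 0.15). Without control 10, 3 of the 26 were lower and 0 higher, beside 7.7% and 5.74% over all genes, with a median of -0.06. In that comparison 3 lay below every remaining control, beside 8.65% over all genes. With all controls 20 of the 26 hepatocyte genes lay below 0. Their list mean ran from -0.38 to -0.05 in tumours and from -0.09 to 0.05 in controls. The median level of this list was 11.67, and the highest value on any array was 12.85. Whether differences are narrowed at such bright levels was not tested. The remaining lists had medians between -0.35 and 0.33. Urea cycle and amino acid catabolism (1 higher and 3 lower of 23, median -0.35, but -0.22 without tumour 123) included the enzymes Cbs (-0.57, SE 0.21) and Fah (-0.31, SE 0.12). YAP and TAZ targets (7 higher and 2 lower of 24, median 0.33) included Crim1 (1.04, SE 0.34), and Notch genes (2 higher of 19, median 0.23) the ligand Dll4 (0.80, SE 0.25). Among iron genes (2 higher and 2 lower of 19, median -0.12, but -0.23 without control 12), the sensor Tfr2 was at 9.29, 8.97 and 9.15 in controls and 8.21 to 8.88 in tumours (-0.62, SE 0.15, adjusted p = 0.113). Erythroid markers had 1 higher and 1 lower of 6 (median -0.18), pancreas, adipose and muscle markers 1 and 1 of 15 (median 0.01), and UDP-glucuronosyltransferases 0 and 4 of 13 (median -0.07). Without control 10 the UDP-glucuronosyltransferase median was -0.29, with Ugt2b38 called, and the erythroid median was 0.02. The former was 0.009 without control 11, -0.17 without control 12 and -0.18 without tumour 124. The latter was -0.35 without control 11 and -0.29 without tumour 90.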

How the data were processed

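Total RNA of liver and tumour tissue was amplified, biotin-labelled and hybridised to single-colour arrays, 1 per sample, per the labels' protocols. The authors deposited log2 expression values. The submitters' processing notes name RMA and Partek without versions. The genome build was not given in the sources used here, nor was the chip model. RMA equalises array distributions, so global shifts between tissues are removed and dim genes are compressed. Of 24479 probe sets 23281 had 1 symbol and 1198 none, and 23279 genes were tested.

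Groups came from the titles, which number the mice. Control, adjacent liver and tumours were fitted together with limma (version 3.58.1, R 4.3.3; lmFit, eBayes with an intensity trend), and p-values adjusted by Benjamini-Hochberg. SE is that of the fit. The number of arrays limits the precision, and no label gives a batch. On simulated data the fit called 66% of genes changed by 1 log2 unit and 98% of those changed by 2. It also called 10 unchanged genes. In the simulation every tumour shifted by the same amount, whereas the tumours here differed from one another. These shares therefore do not give the share of changes found in these data. Deleted mice share numbers between tumour and adjacent liver in 4 mice, but control mice have no tumour, so no pair enters the comparison with controls. Tumour against adjacent liver was taken from the same unpaired fit, and the paired fits were added after the data were seen.

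Of the 1074 entries of 47 gene lists 1000 were measured. Members, lists and the omission of control 10 were chosen with earlier results of these data known. By rule were named Axin1, the 5 genes given with the comparison, the 10 smallest p in each direction (leaving out predicted, clone-named and receptor genes), and of each list the called members, or else the pair of smallest p. Alternatives were other scalings, filters, spread estimates, treatment of mouse 121, a replicate block and each mouse left out.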

Additional observations from a re-analysis of the deposited data

Results flagged for a closer look

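Among 233 sets of 6 tumour values examined, 17 held a mouse whose gap to the nearest other tumour exceeded 0.625 of the whole range. Chance gives about 1 in 20. Tumour 93 stood apart in Ly6d (7.89, the others 10.33 to 11.42), Cadm4 (4.32, others 4.17 to 4.22), Cyp2u1 (6.50, others 4.85 to 5.45), Susd4 (6.96, others 3.68 to 4.43) and the mean of the YAP and TAZ targets (-0.075 relative to controls, others 0.35 to 0.57). Tumour 81 stood apart in Crp (9.43, others 10.46 to 11.04), Rsad2 (9.58, others 6.02 to 7.13), Scd1 (11.001, others 11.64 to 11.93), C8a (6.69, others 9.42 to 10.06) and Alb (11.89, others 12.39 to 12.58). It also did so in the list means of glycolysis, gluconeogenesis and glycogen (0.72, others -0.17 to 0.08) and of interferon-stimulated genes (1.85, others -0.32 to 0.42).

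Tumour 90 was low in Mki67 (4.57, others 5.97 to 6.62) and Top2a (3.85, others 5.61 to 6.52). Tumour 123 was high in Afp (9.23, others 5.24 to 6.05) and low in Zfp616 (1.99, others 2.13 to 2.18), and tumour 124 was low in Apoa4 (9.84, others 11.42 to 12.04).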

How the results depend on the processing

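The count of 6 called genes stayed at 6 with quantile normalization, averaged probe sets, every probe set or a robust trend, and was 7 with only tumours and controls in the fit (smallest adjusted p = 0.0481, 4 of the 6 kept), 4 with array weights per group and 4 without adjacent liver 1931 (4 of the 6 kept in each). It was 18 with median centring, 35 with a filter keeping 12787 genes, 3 without the intensity trend, 31 with 8 tumours as separate values and 33 with only the unnumbered tumour of mouse 121. With the mouse number as a random replicate block, at a correlation of 0.0732 and with the tumours of mouse 121 entered separately, it was 24, and all 6 genes were among them. With each mouse left out it ran from 0 to 242 (0 without control 12, 242 without tumour 93); the cause was not tested. All 6 genes kept their direction in every setting in which they were tested. As their tumours and controls did not overlap, leaving out a mouse could not reverse it, so this is no measure of stability. Among genes not called, Alb turned to 0.03 with quantile normalization. With a mouse left out Alb ran from -0.077 to 0.06, Scd1 from -0.052 to 0.176, S100a8 from -1.171 to 1.517, S100a9 from -1.708 to 0.886 and Krt19 from -0.141 to 0.228; S100a8 and S100a9 were highest without control 10. With median centring or a mouse left out, 460 of 470 list medians moved by less than the SD of list means between tumour mice. Median centring or leaving out 1 of 6 tumours can hardly exceed that SD, so the count is no measure of stability. Some medians still changed sign, as for neutrophil markers, from -0.25 to 0.17 without control 10. Precision is limited by 3 controls and by compression of dim genes, which here include Vmn2r25.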
